A study of Mus musculus with 17 samples.

Results

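The enzymes of heme synthesis were followed through 17 RNA sequencing libraries of mouse fetal liver cells. The set had 9 genes, taken by name from the list of genes counted in all 3 deposited tables (46880 genes): Alas1, Alas2, Alad, Uros, Urod, Cpox, Ppox and Fech, which make heme, and Hmox1, which breaks it down. Donor embryos were at day E12.5 to 13.5 and belonged to a B6J.129(Cg) strain with Cas9 and EGFP, under the CAG promoter, in the allele Gt(ROSA)26Sortm1.1. In 14 libraries the first transgene was sgGata1, a guide against the transcription factor gene Gata1; the labels call these cells Gata1s, after the short form of the protein. Their second transgene was LUC (3 libraries) or Arid3a (3), each after doxycycline at 1 µg/mL for 48 h, or sh-ctrl (3), shArid3a (2) or miR-125b (3), each after the same dose for 10 days. The 3 WT libraries carried sgLuc and shLuc and their treatment field is empty. So the controls LUC and sh-ctrl carry the Gata1 guide as well. The labels do not give the share of edited cells, the promoter of the second transgene, or whether replicates were separate cultures or embryos, and p-values therefore measure only the spread between these libraries.

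Heme is made in a chain of enzymatic steps that starts and ends in the mitochondrion and passes through the cytosol. The first step, condensation of glycine with succinyl-CoA, is catalysed by 5-aminolevulinate synthase, which has a housekeeping form (Alas1) and an erythroid form (Alas2) and sets the pace of the pathway. Red cell precursors of the fetal liver need large amounts of heme for haemoglobin, and GATA1 is a known activator of erythroid genes, Alas2 among them; platelet precursors and myeloid cells also make heme, for cytochromes and peroxidases. Heme oxygenase 1 (Hmox1) opens the heme ring and releases iron and carbon monoxide.

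Levels are given in CPM, read counts divided by library size, scaled with TMM over all 17 libraries, and differences as log2 fold changes from edgeR's quasi-likelihood test, with adjusted p-values over all genes tested and a call at an adjusted p under 0.05. Library totals were 31339238 to 40859301 counts in the Gata1s cells and 16362439 to 19212193 in WT. Arid3a itself was at 53.1, 68.9 and 74.2 CPM in the libraries labelled Arid3a and at 59.0 to 64.2 in LUC, so the counts go against a raised level in those libraries (log2 fold change 0.08, SE 0.12, edgeR adjusted p = 0.737); a transgene without the counted sequence would not be seen. It was at 21.4 and 22.3 CPM in shArid3a and at 7.99 to 11.1 in miR-125b, against 49.5 to 63.6 in sh-ctrl. Gata1 was at 232 to 593 CPM in the Gata1s libraries and at 61.8 to 72.9 in WT, and a count per gene does not tell its short form from the long one. The summed level of 11 neutrophil and monocyte marker genes was 15620 to 20740 CPM in WT and 8.99 to 184 in the Gata1s libraries. The sum of 12 megakaryocyte and platelet markers was 1334 to 1544 CPM in WT and 2892 to 5348 in Gata1s, and 19 erythroid markers summed to 224 to 277 CPM in WT and 494 to 1343 in Gata1s. Single markers of both lists went either way. Mean levels of Ermap (21.1 against 1.43 CPM), Ank1 (6.53 against 0.0727) and Vwf (64.25 against 16.3) were higher in WT than in LUC. Those of Car2 (86.4 against 382 CPM) and Itga2b (388 against 1171) were lower. Slc4a1, the anion exchanger of the red cell membrane, was at 0 in every LUC, sh-ctrl, shArid3a and miR-125b library. It had 0 to 1 reads in the libraries labelled Arid3a and 2 to 4 in WT. The 9 hepatocyte markers summed to at most 5.79 CPM in any library. In such bulk RNA, fewer cells of a type and less RNA per cell cannot be told apart.

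The mature miR-125b-5p is shown first because the miR-125b libraries hold the enzyme changes that passed the test. RefSeq (GRCm38.p6) places the same mature sequence at chr9:41581940-41581961 (Mir125b-1) and chr16:77646279-77646300 (Mir125b-2), both on the plus strand. Capitals mark the seed, bases 2 to 8.
mmu-miR-125b-5p: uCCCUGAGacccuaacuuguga
Matches to it were searched as the 8mer CTCAGGGA, the 7mer CTCAGGG and the 7mer TCAGGGA, the latter 2 being parts of the 8mer, on the sense strand of the annotated 3′ UTRs (GENCODE M21). Cpox, whose level was lowest with miR-125b, holds 1 TCAGGGA, at base 383 of its UTR of 1629 bases (chr16:58679129-58679158, plus strand, GRCm38). It is shown with its flanks and the match in capitals.
Cpox 3′ UTR site: acagaagtttaTCAGGGAatacattttatc
Of 2879 genes whose longest 3′ UTR is 1303 to 1954 bases, 13.8% hold this 7mer. In Fech, 3 of 5 coding transcripts hold 1 8mer, which 13.5% of 881 genes with UTRs of 4194 to 6291 bases also hold, its longest being 5243 bases. Its transcripts with UTRs of 5169 and 5243 bases each hold 2 CTCAGGG and 2 TCAGGGA, the 8mer counted in both. The deposited exon length of Fech, 2901 bases, is shorter than these UTRs, so the gene model counted differs from the one searched. No transcript of the other 7 enzymes holds any of the 3 matches, and their longest UTRs run from 65 bases (Ppox) to 623 (Uros). A match is a description of the letters, and binding was not measured.

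The Cpox promoter is shown because Cpox differed most between groups treated alike and all Gata1s groups carry a guide against a factor that binds GATA motifs. The window is the 250 bases before the RefSeq start (chr16:58669958-58670207, plus strand, GRCm38.p6), with matches to the motif AGATAA, to the motif AGATAG, to the motif TGATAA or to the motif TGATAG, on either strand, in capitals.
Cpox promoter: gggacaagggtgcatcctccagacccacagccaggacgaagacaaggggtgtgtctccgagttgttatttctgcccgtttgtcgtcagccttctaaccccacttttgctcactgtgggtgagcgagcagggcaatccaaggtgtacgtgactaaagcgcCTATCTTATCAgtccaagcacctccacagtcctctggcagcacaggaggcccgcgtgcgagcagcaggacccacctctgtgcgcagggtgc
It holds 2 matches, 91 and 86 bases before the start, which share 1 base. Of 32851 windows of this length in the RefSeq table, 26.5% hold at least 1 match and 6.4% at least 2. The Alas2 window holds 1 match and 1 of the Uros windows holds 2, and the windows of Alas1, Alad, Urod and Ppox hold none. Promoter windows were matched for 7 of the 9 genes, all but Fech and Hmox1.

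Compared per length of exon, the enzymes kept nearly the same order in all Gata1s groups, and WT had another. In LUC the synthesis enzymes ran from Alad (54.0 CPM per kb) through Urod (41.5), Cpox (39.5), Fech (32.0), Ppox (7.90), Alas1 (6.30) and Uros (3.82) to Alas2 (0.10). In WT, Alas1 came first with 52.8 CPM per kb, followed by Urod (21.9), Cpox (20.2), Fech (14.2), Ppox (8.74), Alad (7.25), Uros (2.87) and Alas2 (0.11). In the libraries labelled Arid3a, Cpox (42.2) was ahead of Alad (38.4) and Urod (36.1), and in miR-125b it was behind Fech, at 11.2 against 20.6 CPM per kb. On the TMM scale the summed level of the 8 synthesis genes moved little by comparison. It ran from 453 ± 44.8 CPM (SD, n = 3) in WT to 650 ± 48.4 (SD, n = 2) in shArid3a, with 499 ± 43.0 (SD, n = 3) in miR-125b. As a share of counts, without TMM, every miR-125b library lay below every other library. The share was 0.0411% to 0.0438% in miR-125b, 0.0453% to 0.0541% in WT and 0.0448% to 0.0561% in the libraries labelled Arid3a.

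**Figure D1:**
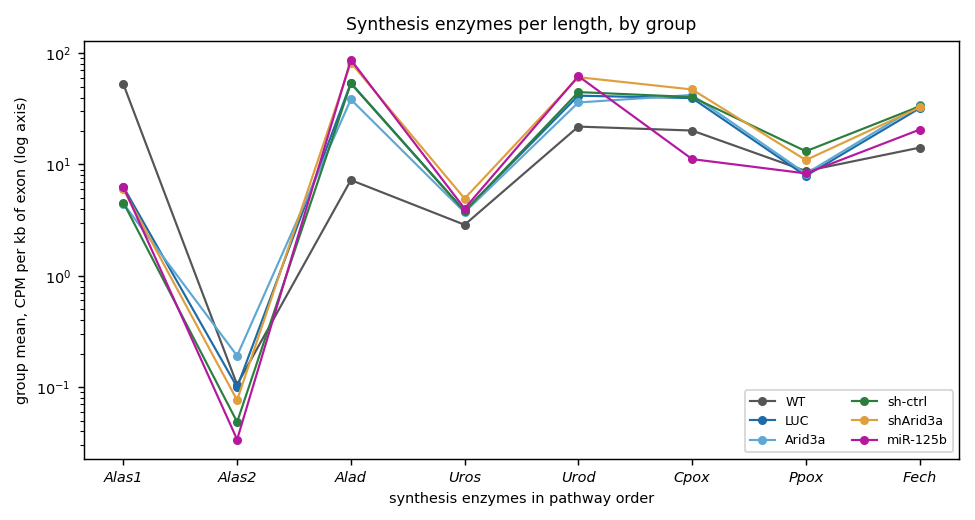
Mean level of each synthesis enzyme per kb of exon (log axis, CPM per kb) in pathway order, 1 line per group. WT stands above all other groups at Alas1 (52.8 against at most 6.30) and below them at Alad (7.25), and miR-125b is lowest at Cpox (11.2).

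Alas1, the housekeeping synthase (ENSMUSG00000032786, chr9:106233455-106248126, minus strand), was at 247, 240 and 196 CPM in WT. In the Gata1s cells it was at 24.4, 30.6 and 26.4 CPM in LUC, 19.2, 18.8 and 19.5 in the libraries labelled Arid3a, and 19.1, 19.7 and 20.0 in sh-ctrl. It was at 24.9 and 26.6 CPM in shArid3a and at 29.4, 24.2 and 27.8 in miR-125b. Every WT library lay above every Gata1s library, and the WT mean was 8.38 to 11.8 times the means of the Gata1s groups. Among the Gata1s groups, miR-125b, LUC and shArid3a overlapped each other, and the sh-ctrl and Arid3a-labelled libraries lay lower and overlapped each other.

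Alas2, the erythroid synthase (ENSMUSG00000025270, chrX:150547375-150570638, plus strand), had 0 to 26 reads in any library. Its mean was 0.46 CPM in the libraries labelled Arid3a, 0.25 in WT, 0.24 in LUC, 0.18 in shArid3a, 0.12 in sh-ctrl and 0.08 in miR-125b, and all neighbours in this order overlapped. Per length it reached 6.75% of Alas1 in the highest library and 0% in the lowest. Exons of Apex2 (8.13 to 28.9 CPM) lie on the opposite strand of this gene, and whether strand was used in counting is not given in the sources used here, so even these few reads cannot be assigned to Alas2 with certainty.

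Alad, which joins a pair of aminolevulinate molecules into porphobilinogen (ENSMUSG00000028393, chr4:62509169-62519918, minus strand), was at the other extreme from Alas1. It was at 16.8, 11.2 and 12.7 CPM in WT, 88.8, 115 and 98.9 in LUC, 56.4, 81.4 and 77.9 in the libraries labelled Arid3a, and 91.4, 109 and 100.4 in sh-ctrl. With shArid3a it was at 141 and 167 CPM, and with miR-125b at 185, 154 and 152. Every WT library lay below every Gata1s library, the Gata1s means being 5.30 to 12.1 times the WT mean. Both shArid3a and all miR-125b libraries lay above all other libraries, and overlapped each other.

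Uros, which closes the porphyrin ring (ENSMUSG00000030979, chr7:133686243-133710072, minus strand), had the lowest level per length after Alas2 among the synthesis genes of the Gata1s cells. It was at 8.04 to 12.7 CPM in WT and 11.7 to 22.0 in the Gata1s libraries, and no neighbouring groups in the order of its means were apart. Its highest value came from replicate 3 of shArid3a (22.0 CPM), the other library of that group being at 13.3.

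Urod, which removes carboxyl groups from the first ring compound (ENSMUSG00000028684, chr4:116989965-116994413, minus strand), followed Alad. It was at 66.8, 49.2 and 54.3 CPM in WT, 100.2, 112 and 111 in LUC, 83.6, 99.6 and 97.3 in the libraries labelled Arid3a, and 108, 135 and 105 in sh-ctrl. It was at 136 and 180.1 CPM in shArid3a and 185, 157 and 142 in miR-125b. WT lay below all Gata1s libraries, the Gata1s means being 1.65 to 2.84 times as high.

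Cpox, which makes protoporphyrinogen in the space between the mitochondrial membranes (ENSMUSG00000022742, chr16:58670208-58680391, plus strand), had its own pattern. It was at 145, 122 and 110.2 CPM in LUC, 101, 142 and 159.9 in the libraries labelled Arid3a, 136, 92.7 and 158 in sh-ctrl, and 208 and 93.3 in shArid3a. In miR-125b it was at 35.5, 35.6 and 35.7 CPM, below every other library including WT, which was at 57.1, 73.3 and 62.5. The coefficient of variation of Cpox over the miR-125b libraries was 0.302% on the TMM scale and 6.02% by library totals, and over sh-ctrl it was 25.6% and 27.9%. An opposite-strand gene, Gpr15, overlaps exons of Cpox and reached at most 1.84 CPM.

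Ppox oxidises that product to protoporphyrin (ENSMUSG00000062729, chr1:171275990-171281186, minus strand). It was at 70.7, 38.1 and 69.3 CPM in sh-ctrl, 61.7 and 37.2 in shArid3a, 37.6, 38.0 and 37.0 in miR-125b, 33.0 to 38.8 in LUC, 33.8 to 41.0 in the libraries labelled Arid3a, and 29.6 to 53.2 in WT. All neighbouring groups overlapped. Replicate 2 of sh-ctrl and replicate 3 of shArid3a were the low libraries of their groups for Ppox and for Cpox alike. B4galt3, on the opposite strand, overlaps exons of Ppox and was at 7.23 to 26.1 CPM.

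Fech, which inserts iron into protoporphyrin (ENSMUSG00000024588), lay within a narrow range on the TMM scale in all Gata1s groups but miR-125b. It was at 91.5, 94.6 and 92.4 CPM in LUC, 90.6 to 103 in the libraries labelled Arid3a, 99.6, 99.2 and 90.7 in sh-ctrl, and 99.7 and 89.1 in shArid3a. It was at 62.2, 57.8 and 59.0 CPM in miR-125b and at 38.9, 45.4 and 39.0 in WT. The miR-125b libraries lay below all other Gata1s libraries and above WT on the TMM scale. With library totals alone, Fech in WT overlapped the Gata1s libraries. By these totals both shArid3a libraries, at 72.3 and 89.7 CPM, lay below all sh-ctrl libraries (92.8 to 96.6).

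Hmox1 (ENSMUSG00000005413, chr8:75093591-75100596, plus strand), the enzyme of heme breakdown, was at 23.4, 19.5 and 21.2 CPM in WT and at 1.47 to 6.50 in every Gata1s library. The WT mean was 4.09 to 8.42 times the Gata1s means. Within the Gata1s cells the spread was wide: 6.07, 2.89 and 2.39 CPM in sh-ctrl, 3.60 and 1.47 in shArid3a, and 5.85, 6.50 and 3.32 in miR-125b. LUC was at 3.16 to 4.39 CPM and the libraries labelled Arid3a at 4.47 to 6.13.

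**Figure D2:**
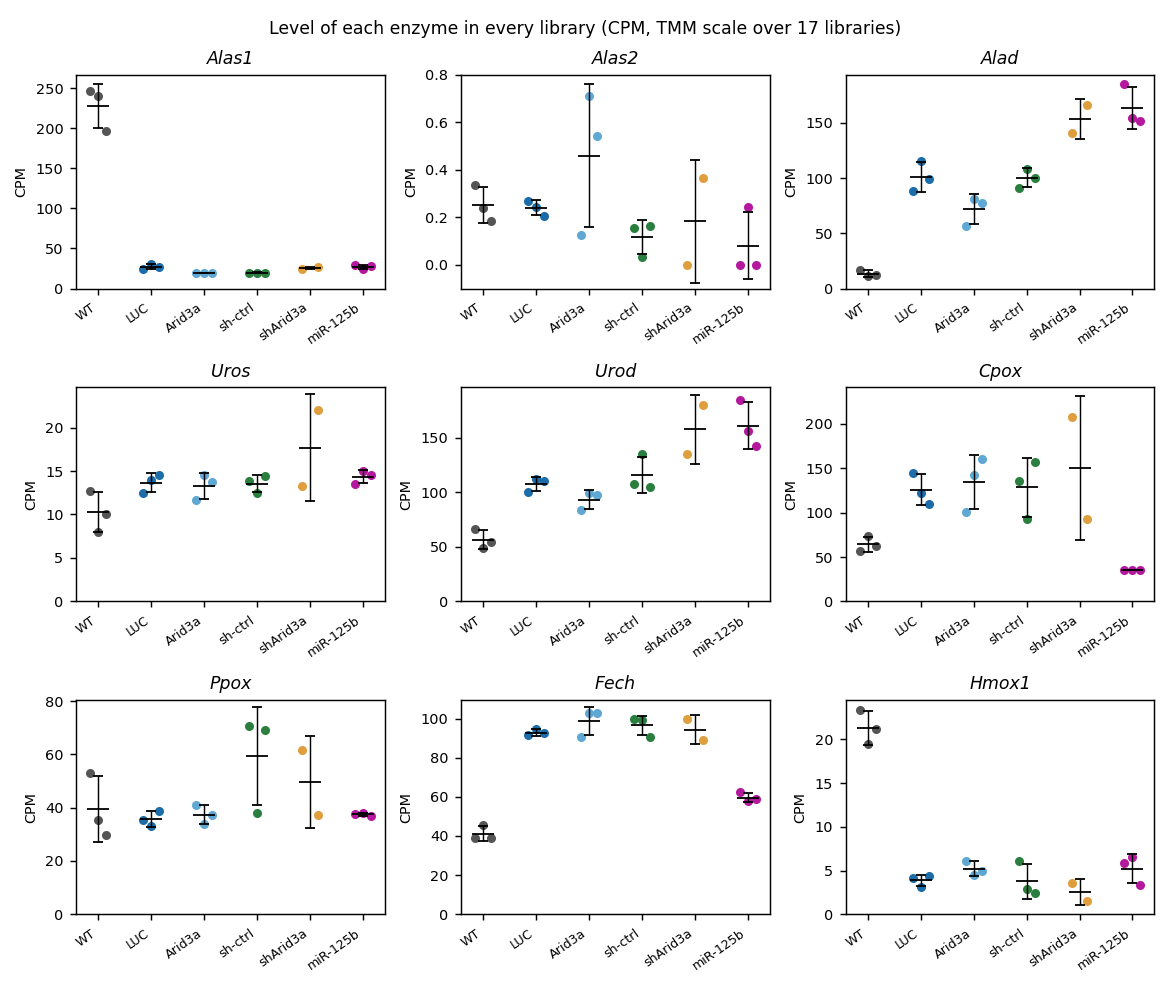
Level of each enzyme (CPM, linear axis with a range of its own per panel) in every library, by group; points are libraries and the bar and whiskers are the mean and SD. Alas1 and Hmox1 stand highest in WT (227 and 21.4 CPM on average), Alad, Urod and Fech lowest there, and Cpox is lowest in miR-125b (35.6).

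WT against the Gata1s groups was not tested, because genotype, doxycycline, second transgene and deposited table change together and their parts cannot be told apart. By level, 2 of the 9 genes (Alas1, Hmox1) lay above all 14 Gata1s libraries in WT and 3 (Alad, Urod, Fech) below all of them, as did 21.6% and 14.7% of 16587 genes. The other 4 overlapped. With library totals alone, Alas1, Hmox1, Alad and Urod kept these positions. The sums of the neutrophil and monocyte markers and of the macrophage markers (97.6 to 122 CPM in WT, at most 1.62 in Gata1s) moved with this split. So did the sum of mast cell and basophil markers (1757 to 1999 CPM in WT, 202 to 936 in Gata1s). Not every member followed that last sum. Mean Fcer1a was 0.597 CPM in WT and 1.47 to 14.3 in the Gata1s groups, and mean Gata2 was 255 against 226 to 480. The part of all these markers in the split was not tested.

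Setting the libraries labelled Arid3a beside LUC addresses what that transgene changes in Gata1s cells within 48 h, with the reservation that the counts show no raised Arid3a. Among the enzymes, 0 of 9 were called by edgeR, as were 0 of 13495 genes (0%), while 3 enzymes and 2885 genes had an unadjusted p under 0.05. The lowest p-values were those of Alas1 (log2 fold change −0.50, SE 0.11, adjusted p = 0.0895) and Alad (−0.50, SE 0.15, adjusted p = 0.133), each with all libraries labelled Arid3a below all of LUC. DESeq2 called both (adjusted p = 0.00384 and 0.0271) among 1359 genes, and so did edgeR without replicate 1 of the libraries labelled Arid3a (0.0105 and 0.0361; Alad then −0.34), when 3198 genes were called. Groups did not overlap for 4 enzymes, Urod (−0.21, adjusted p = 0.22) and Hmox1 (0.42, adjusted p = 0.33) being the other two, against 27.6% of all genes; by library totals Urod overlapped. Alas2 had a log2 fold change of 0.91 with an SE of 0.64 (adjusted p = 0.455), and Uros, Cpox, Ppox and Fech lay between −0.05 and 0.09. The median over the enzymes was 0.07, and over all genes 0.01.

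The comparison of shArid3a with sh-ctrl addresses what a lowered Arid3a changes over 10 days. Of the 8 enzymes tested, 0 were called by edgeR, beside 12 of 14004 genes (0.0857%); Alas2 had too few reads to be tested in this table. The 12 became 5 without sh-ctrl replicate 2, 2 without sh-ctrl replicate 3, and 3 and 2 without shArid3a replicates 1 and 3. At an unadjusted p under 0.05 there were 3 enzymes and 3616 genes. Those 3 were Alad (log2 fold change 0.60, SE 0.14, adjusted p = 0.0989), Urod (0.43, SE 0.18, adjusted p = 0.166) and Alas1 (0.38, SE 0.17, adjusted p = 0.185). In each, both shArid3a libraries lay above all sh-ctrl libraries, where 43.9% of all genes had groups apart in one direction or the other. By library totals these log2 fold changes were 0.40, 0.23 and 0.18, with the median of all genes at −0.22, and the groups then overlapped for Urod. Reads of 5 ribosomal RNA-like genes moved with the groups. They made up 0.279% and 0.29% of counts in shArid3a and 0.223% to 0.324% in miR-125b, against 0.0295% to 0.0563% in sh-ctrl. The TMM factors moved as well (0.80 to 0.90 against 0.97 to 1.02). A fit without the 5 ribosomal RNA-like genes called 0 genes in place of the 12. Beyond that fit and the one by library totals, the part of these reads and factors in the results was not tested. DESeq2 called Alad alone (adjusted p = 0.0112) of the enzymes, among 1600 genes. Cpox was at 0.22 with an SE of 0.30 (adjusted p = 0.671), and without replicate 1 of shArid3a it was at −0.49. Ppox (−0.27), Fech (−0.05), Uros (0.36) and Hmox1 (−0.58) had edgeR adjusted p-values of 0.354 to 0.85. By library totals the groups were apart for Fech, with shArid3a at 72.3 and 89.7 CPM and sh-ctrl at 92.8 to 96.6. The medians were 0.29 for the enzymes and −0.02 for all genes.

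With miR-125b against sh-ctrl, the pathway split: Alad and Alas1, from its start, were higher, and Cpox and Fech, from its end, were lower. In all, 4 of the 8 enzymes tested were called, 2 higher and 2 lower, where 24.4% of all 14004 genes were called, 12.1% higher and 12.2% lower. The 2 groups were apart for 6 enzymes, against 44.9% of all genes. Cpox fell to 0.274 times its sh-ctrl level (log2 fold change −1.87, SE 0.28, edgeR adjusted p = 0.00548). Fech fell by 0.71 on the log2 scale (SE 0.12, adjusted p = 0.00648). Alad rose by 0.69 (SE 0.13, adjusted p = 0.00909). These 3 calls held in all 15 alternative fits, with Cpox between −2.07 and −1.71. The count over all genes depended on single libraries: 734 genes were called without sh-ctrl replicate 3, and 1766, 2229 and 2032 without miR-125b replicates 1, 2 and 3. Alas1 rose by 0.45 (SE 0.15, edgeR adjusted p = 0.04999), a call lost in 12 of the 15 alternatives, those without any 1 of the 6 libraries included, with an edgeR adjusted p of 0.0609 in the fit with the replicate number as a block.

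The remaining enzymes did not pass. Urod was at 0.46 (SE 0.16, adjusted p = 0.0581) and Ppox at −0.68 (SE 0.25, adjusted p = 0.07), each with groups apart, although Urod overlapped by library totals. Without replicate 2 of sh-ctrl, the low one for Ppox, the values were −0.92 for Ppox (adjusted p = 0.0221) and 0.58 for Urod (0.0416). Uros was at 0.07 (adjusted p = 0.839) and Hmox1 at 0.45 (SE 0.47, adjusted p = 0.51). The medians were 0.26 for the enzymes and −0.03 for all genes. Under library totals in place of TMM, the median over all genes was −0.22 and the calls were 890 higher and 2452 lower, in place of 1700 and 1714; of the enzymes, Alad then remained higher and Cpox, Fech and Ppox (−0.87, adjusted p = 0.043) were lower, and Uros was at −0.12.

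As a description of 2 enzymes chosen because they had moved in opposite directions, the ratio of Alad to Cpox in CPM was 5.22, 4.32 and 4.25 in miR-125b and 0.674, 1.17 and 0.637 in sh-ctrl. It was 0.68 and 1.79 in shArid3a, 0.612 to 0.942 in LUC, 0.487 to 0.573 in the libraries labelled Arid3a, and 0.153 to 0.294 in WT. The miR-125b libraries were thus above and the WT libraries below all others. The ratio of Fech to Alad ran the other way, at 0.336 to 0.389 in miR-125b, 0.903 to 1.09 in sh-ctrl and 2.32 to 4.06 in WT. It shares Alad with the first ratio, now as the denominator, and so is not a separate contrast.

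**Figure D3:**
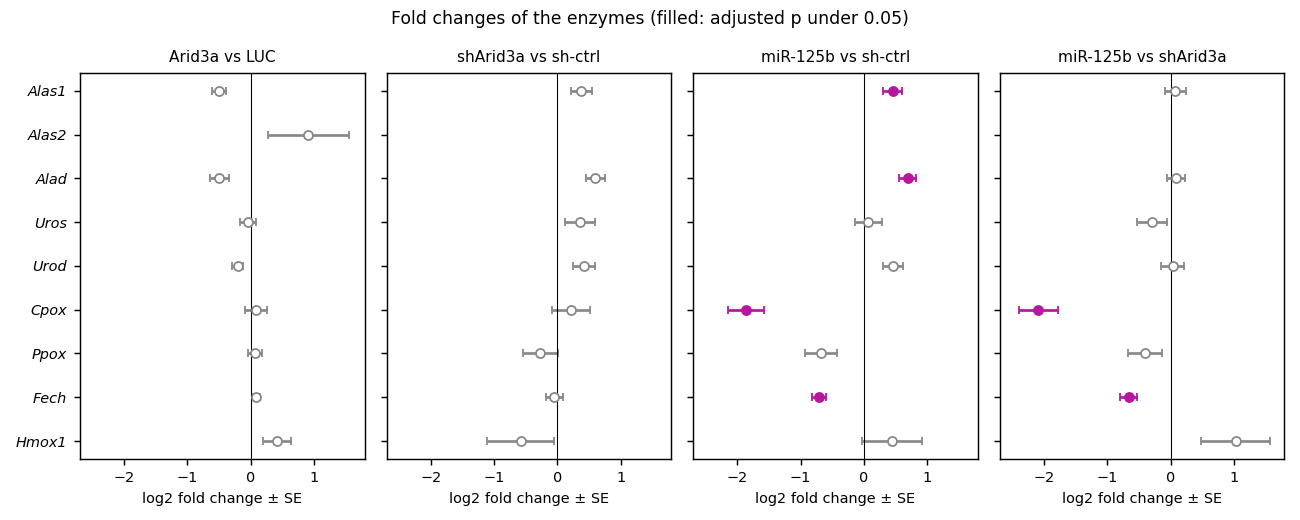
Log2 fold change (x axis) of each enzyme with its SE in the 4 comparisons, from edgeR; filled points passed an adjusted p under 0.05 and Alas2 was tested in the first panel alone. In the panels of miR-125b Cpox lies farthest left, at −1.87 and −2.09.

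Cell markers were also compared between miR-125b and sh-ctrl, where 24.4% of all genes were called. Counts near that share say little of a marker list. Of 17 erythroid markers tested, 5 were called against sh-ctrl, all lower, among them Hbb-bs (adult beta globin, −2.21) and Sptb, and 13 of the 17 were on the lower side; 19 markers summed to 636 to 729 CPM in miR-125b and 866 to 1343 in sh-ctrl. Of 12 megakaryocyte and platelet markers, 7 were lower and 1 higher (summed 3303 to 4209 against 3536 to 5348 CPM). Of 6 neutrophil and monocyte markers tested, 3 were higher (Mpo, Lyz2, Elane), and all 11 summed to 99.7 to 184 against 60.6 to 113 CPM. Of 10 mast cell and basophil markers, 2 were higher (Prss34, Mcpt8), with overlapping sums of 302 to 713 against 202 to 441 CPM. Both varied widely between the miR-125b libraries. Prss34 ran from 3.04 to 67.3 CPM (mean 24.5) there, against at most 0.326 in sh-ctrl. Mcpt8 ran from 0.973 to 48.9 CPM (mean 17.2), against at most 0.136. Their part in the enzyme changes was not tested.

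Set directly against shArid3a in the same table, miR-125b had lower Cpox (log2 fold change −2.09, SE 0.30, edgeR adjusted p = 0.0124) and lower Fech (−0.66, SE 0.13, adjusted p = 0.0383). These were 2 of 8 enzymes, where 1.35% of 14004 genes were called; groups were apart for the same 2 enzymes and for 29.8% of genes. Arid3a differed as well, being lower in miR-125b by 1.13 on the log2 scale (log2 fold change −1.13, adjusted p = 0.024). Cell markers differed here too: of 6 neutrophil and monocyte markers tested, 2 were called higher (Mpo, Lyz2) and all 6 were on the higher side (median 2.33; summed 99.7 to 184 against 39.3 to 74.9 CPM), and of 12 megakaryocyte markers 1 was higher (Gp1bb). Of 17 erythroid markers tested, 0 were called, with 13 on the lower side and 4 on the higher (median −0.48). All 19 summed to 636 to 729 CPM in miR-125b and 927 to 1064 in shArid3a. The part of all these markers in the enzyme differences was not tested. Leaving out a shArid3a library leaves 1 in that group, which is then taken to vary like the other groups. Cpox was not past the threshold without shArid3a replicate 1 (−1.37, adjusted p = 0.0802) or without miR-125b replicate 2 (−2.07, adjusted p = 0.0717). Fech lost its call in 6 of 14 alternatives, among them the replicate block (adjusted p = 0.0574) and the fit of these 2 groups alone (0.0815). It was also lost without shArid3a replicate 1 (0.288) or 3 (0.0621) and without miR-125b replicate 2 (0.159) or 3 (0.128). Over all genes, 12 and 109 were called without shArid3a replicates 1 and 3, and 329, 26 and 70 without miR-125b replicates 1, 2 and 3. Alad (0.09, SE 0.15, adjusted p = 0.851), Urod (0.03, SE 0.18) and Alas1 (0.08, SE 0.17) showed no detectable difference between these groups, and Ppox (−0.40), Uros (−0.29) and Hmox1 (1.03, SE 0.54, adjusted p = 0.425) did not pass either. The median of the enzymes was −0.13 and of all genes −0.01.

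The genes around the pathway were taken from 5 lists, whose counts stand beside the 24.4% of all genes called in miR-125b against sh-ctrl; counts near that share say little of a list. For mitochondrial import and porphyrin handling, 5 of 11 tested genes were called in miR-125b against sh-ctrl, 2 higher and 3 lower (median 0.14, all genes −0.03). Pgrmc1, a heme-binding partner of ferrochelatase, rose by 0.62 (adjusted p = 0.0112) and Sucla2, a subunit of succinyl-CoA synthetase, by 0.58 (0.0182).

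For iron uptake, storage and release, 3 of 10 were called, 2 higher and 1 lower (median 0.0021). Slc25a37, the mitoferrin that brings iron into the mitochondria of red cell precursors, fell by 0.76 (adjusted p = 0.0127), from 97.8 ± 8.60 to 58.6 ± 8.71 CPM (SD, n = 3 each), and it was at 47.4 and 63.8 CPM in shArid3a. The ferritin heavy chain Fth1 rose by 0.77 (0.0287) and the iron chaperone Pcbp1 by 0.54 (0.0236). For iron-sulfur cluster assembly, 6 of 9 were called, all higher (median 0.49), led by Lyrm4 (0.81, adjusted p = 0.0198), the co-chaperone Hscb (0.59, 0.0227) and the scaffold Iscu (0.49, 0.0235); Iscu passed in 9 of 15 alternatives and Lyrm4 in 12. By library totals, 1 of the 9 was called, with 7 on the higher side (median 0.29).

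For heme breakdown, export and sensing, 4 of 12 were called, 2 higher and 2 lower (median −0.0025). Bach1, the heme-regulated repressor whose known targets include Hmox1, fell by 0.96 (adjusted p = 0.00651, called in all 15 alternatives). It was at 70.5 ± 3.66 CPM in sh-ctrl, 36.6 ± 4.93 in miR-125b (SD, n = 3 each) and 36.3 and 48.9 in shArid3a. Aco1, an iron-sensing aconitase, fell by 0.63 (0.025), and biliverdin reductase Blvra rose by 0.53 (0.0199). Among the 9 genes of the last list, erythroid transcription factors and the receptor gene Epor, 1 was called, Lmo2, which rose by 0.73 (0.0308). Without sh-ctrl replicate 3, Bach1 was the only one of the 12 genes named here from these lists to pass, the adjusted p of the other 11 lying between 0.0533 (Slc25a37) and 0.109 (Fth1). Against shArid3a, 0 genes of the last 4 lists were called by edgeR, with 1, 0, 1 and 3 at an unadjusted p under 0.05 in the order given. Among the 2 genes of each of these lists with the smallest p, DESeq2 called Klf1, an erythroid transcription factor (edgeR log2 fold change −1.62, adjusted p = 0.105), and Blvrb, a biliverdin reductase (−0.89, 0.124).

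In the comparison of shArid3a with sh-ctrl, 0 genes of the 5 lists were called. The lowest p-values of the lists were those of Slc25a37 (−0.83, adjusted p = 0.0989), Bach1 (−0.74, 0.0997), Iscu (0.54, 0.101), Gfi1b (0.55, 0.103) and Pgrmc1 (0.49, 0.105), and all 9 iron-sulfur genes tested were on the higher side (5 at an unadjusted p under 0.05; median 0.38, all genes −0.02), and 7 of 9 by library totals (median 0.19, all genes −0.22). These values share their controls with those of miR-125b and are set side by side for that reason only. In the libraries labelled Arid3a against LUC, 0 genes of the lists were called either. Gfi1b (−0.54, adjusted p = 0.0701), Pcbp2 (−0.25, 0.0962), Suclg2 (−0.26, 0.0977), Isca1 (−0.22, 0.122) and Bach1 (0.39, 0.134) had the lowest p of their lists. All 9 iron-sulfur genes were on the lower side there (2 at an unadjusted p under 0.05; median −0.12, all genes 0.01), and 8 of 9 by library totals.

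Across the 17 libraries, the log2 levels of the enzymes followed each other in part, and several of these relations rested on WT. As a description, with libraries that share groups and tables, Alad and Urod had the highest Pearson r of any pair, at 0.953 over all libraries, 0.955 over the 14 Gata1s libraries and 0.857 between deviations from the group means. Cpox and Fech were at 0.735, 0.937 and 0.471 in the same order. Among the Gata1s libraries both were lowest in miR-125b, Cpox at 35.5 to 35.7 CPM and Fech at 57.8 to 62.2. The other Gata1s libraries were at 92.7 to 208 and 89.1 to 103 CPM. How far the 0.937 rests on the miR-125b libraries was not tested. Alas1 and Alad ran opposite over all libraries (−0.875) and together within the Gata1s cells (0.72) and between deviations (0.474). Alas1 and Hmox1 were at 0.838 over all libraries, −0.217 over the Gata1s libraries and −0.33 between deviations. Of 8867 genes with a mean log2 CPM of at least 3, those most like Alas1 were Rab27a (0.982), Svip, Glrx, Evi2a and Nfkbia (0.973), and those most like Hmox1 were Rel (0.952), Soat1, Csf2ra, Tor3a and Fchsd2 (0.938). The 3 WT libraries stand far from the others in all of these. For Cpox, added after its values were seen, they were Acss1 (0.943), Tmem123, Piga, Fam78a and Gnpat (0.895). Alas2 was too sparse for its likeness to be read.

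**Figure D4:**
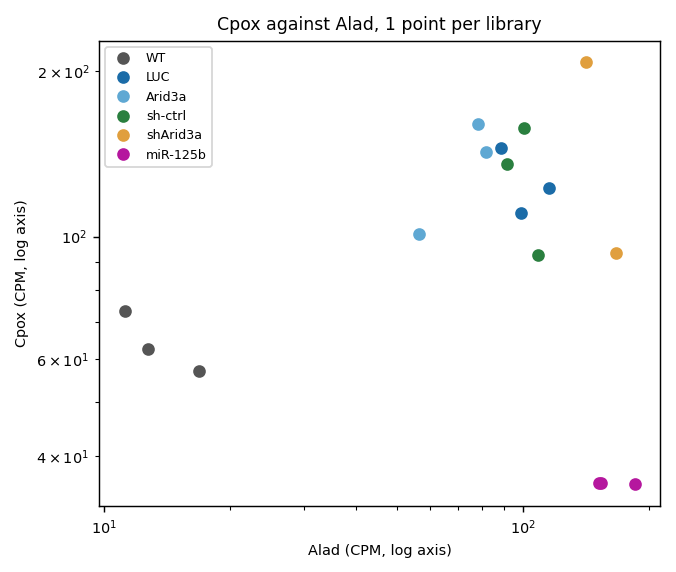
Cpox against Alad (both in CPM, log axes), 1 point per library, coloured by group. The miR-125b libraries lie alone at the lower right (Cpox 35.5 to 35.7, Alad 152 to 185), WT at the lower left (Alad 11.2 to 16.8), and the other Gata1s libraries above both.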

How the data were processed

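RNA sequencing counts of 17 libraries in 6 groups, set by the labels, were used. As deposited by the authors, each table gives raw counts of reads for every gene, with no normalization. Per the submitters' processing notes, the tools were fastp, HISAT2 2.0.5 and featureCounts with the build mm10; use of strand is not given in the sources used here. Exon lengths, in bases, are those of the deposited WT table. Tables were joined by Ensembl identifier (47069, 47069 and 47643 genes); no libraries were identical. The number 2 of shArid3a was not analysed here. UTRs came from GENCODE M21.

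Each table was fitted with edgeR 4.0.16 (R 4.3.3): TMM scaling, filterByExpr, 1 term per group, glmQLFit and glmQLFTest, Benjamini-Hochberg adjustment over all genes tested. The groups with 10 days of doxycycline shared 1 fit. Levels are CPM on a TMM scale over 17 libraries (16587 genes); logs used a prior count of 2. SEs are derived from the F statistics. The test was checked on simulated data. DESeq2 1.42.0, other scalings, filters, the replicate block and leaving out each library were alternatives.

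The 9 enzymes are named in every comparison; each list names up to 3 called genes with the smallest adjusted p, or, with 0 called, up to 2; some genes that this rule takes are not reported here. Members and lists were chosen with earlier results of these data known. In the lists, 9 of 10 iron-sulfur genes (not Fdx2) and 19 of 20 erythroid markers (not Ahsp) were matched by symbol.

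Deviations of same-numbered sh-ctrl and miR-125b libraries from their group means had r = 0.151 to 0.427 over 3 pairs. Differently numbered libraries of these groups reached 0.205. The main fit did not pair libraries, and the numbers entered only the replicate block, an alternative. For LUC and the libraries labelled Arid3a the lowest of 3 was 0.0084.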

Additional observations from a re-analysis of the deposited data

How the results depend on the processing

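Of the alternative values of the enzymes' fold changes, 409 kept direction and side of the threshold, 20 lost and 15 gained a call, and 16 changed sign, none of the last among called enzymes; of the pathway genes taken by the naming rule, whose alternatives were added after seeing the data, 511 kept both, 44 lost and 36 gained a call. In the libraries labelled Arid3a against LUC, 1359 genes and 2 enzymes were called with DESeq2 and 71 genes with no low-count filter; leaving out a library gave 0 to 3198 genes and 0 to 2 enzymes. In shArid3a against sh-ctrl, the 12 genes became 1600 with DESeq2 (1 enzyme), 1237 with no filter (1 enzyme), 20 with library totals, 19 with at least 10 counts in every library, 19 with robust dispersion and 0 without the 5 ribosomal RNA-like genes, and 2 to 11 without single libraries; the block gave 15. In miR-125b against sh-ctrl, leaving out a library gave 734 to 2872 genes and the replicate block 3687, with 3 enzymes. In miR-125b against shArid3a, 715 genes were called with no filter and 737 with DESeq2, and 1 enzyme with the replicate block and with the compared groups alone; single libraries left out gave 12 to 329 genes and 0 to 2 enzymes. The block changed no other call of an enzyme. Signs changed for Uros with library totals (−0.12, miR-125b against sh-ctrl) and Urod with the block (−0.016, against shArid3a). They changed when single libraries were left out for Uros (−0.11 to 0.043), Cpox (−0.053 to 0.26) and Ppox (−0.0052 to 0.14) in the libraries labelled Arid3a; for Cpox (−0.49 to 0.70), Fech (−0.15 to 0.059), Ppox (−0.70 to 0.069) and Uros (−0.014 to 0.67) in shArid3a; and for Alad (−0.0079 to 0.19), Urod (−0.14 to 0.23), Ppox (−0.74 to 0.031) and Uros (−0.60 to 0.084) in miR-125b against shArid3a. The cause was not tested. By library totals, an alternative added after seeing the data, WT held 45.8 CPM of Fech and 23.8 of Hmox1. Alas2, at 0 to 26 reads, is limited by depth. By library totals, also added later, the counts called among the 5 lists in miR-125b against sh-ctrl were 5, 4, 1, 4 and 2, in place of 5, 3, 6, 4 and 1.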
